A study of Mus musculus with 12 samples.

Results

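Liver RNA of mice on a high-fat diet (HFD) was compared between animals labelled as knockouts of LRH-1 and their controls, across all genes. The comparison used 6 of the 12 libraries of the series, 2 labelled HFD knockout and 4 labelled HFD control, chosen by their titles alone. All were from males at 14 weeks of age, on a Mixed Background 129SvEV-C57BL/6, with floxed Nr5a2 alleles (F/F) and 6 weeks on the D12492 diet. Knockout mice had received AAV8-Cre, an adeno-associated virus carrying Cre recombinase that mainly reaches hepatocytes. The controls were floxed mice without Cre, given AAV8-eGFP according to the series text. The promoter that drives Cre is not given in the sources used here, and neither are the exons that it removes. The remaining 6 libraries, from mice on a standard diet, entered only a model of all 12 libraries. That model served the comparison with the standard diet and was also an alternative fit of the HFD comparison.

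LRH-1, the product of Nr5a2, is an orphan nuclear receptor that binds DNA as a monomer, at an extended half-site, and responds to phospholipids. In liver it is known for driving bile acid genes, above all the sterol 12-hydroxylase gene Cyp8b1, and the gene of the corepressor SHP, which in turn restrains nuclear receptors. It also controls genes of cholesterol export, of methyl group and phospholipid metabolism and of glutamine handling.

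Half-site letters were looked up in the RefSeq promoters of build GRCm38.p6, which run from 250 bases before to 50 after a gene's start. The words searched were CAAGGTCA and CAAGGCCA, on both strands, and their inner parts AAGGTCA and AAGGCCA, which lie within the longer words. Of the 93 genes that fell in knockouts (below), 71 had a promoter in the table and 8 of these (11.3%) held an 8-letter word. Of the 34 that rose, 27 had a promoter and 0 held one. Among all genes tested the share was 3.45% (322 of 9339), and among all promoters of these genes 2.81%. The 7-letter words were in 17 of 71 (23.9%), in 4 of 27 (14.8%) and in 10.5% of all genes tested. The 8 genes were Nr0b2, Apon, Cyp4f14, Lrit1, Car5a, Taok3, Psen2 and Nfe2l1. A match of letters is no proof of binding, and no test was made of these shares. The promoters of Nr0b2 (chr4:133553126-133553425, plus strand), Apon (chr10:128253881-128254180, plus strand) and Cyp4f14 (chr17:32917038-32917337, minus strand) follow, since these 3 genes had the largest falls of the 8. They are written 5′ to 3′ with the 8-letter words in capitals. The word lies 201 bases before the start in Nr0b2 and 173 before it in Apon. Cyp4f14 has 2, at 155 and, on the opposite strand, at 96 bases before the start.
Nr0b2: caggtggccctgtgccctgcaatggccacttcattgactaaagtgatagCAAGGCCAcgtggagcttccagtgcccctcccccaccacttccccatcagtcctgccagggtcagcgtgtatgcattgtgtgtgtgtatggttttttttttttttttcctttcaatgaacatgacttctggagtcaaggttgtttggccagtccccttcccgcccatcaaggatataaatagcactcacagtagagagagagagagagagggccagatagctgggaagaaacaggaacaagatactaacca
Apon: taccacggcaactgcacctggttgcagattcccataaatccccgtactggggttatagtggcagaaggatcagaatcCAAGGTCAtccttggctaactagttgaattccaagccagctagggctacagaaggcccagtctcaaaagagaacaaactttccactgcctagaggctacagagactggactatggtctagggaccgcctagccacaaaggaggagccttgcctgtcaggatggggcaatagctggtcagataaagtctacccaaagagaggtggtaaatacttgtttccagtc
Cyp4f14: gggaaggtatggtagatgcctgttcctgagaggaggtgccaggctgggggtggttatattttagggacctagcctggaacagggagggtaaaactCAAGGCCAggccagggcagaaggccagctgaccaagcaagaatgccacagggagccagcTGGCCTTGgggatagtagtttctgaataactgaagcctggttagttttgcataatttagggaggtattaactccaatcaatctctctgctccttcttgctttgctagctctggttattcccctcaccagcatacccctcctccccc

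The HFD libraries held 7463792 to 10875478 counts, with 15137 to 15828 genes at 1 count or more. Of 24062 genes listed, 12372 had enough counts to be tested. HFD control 1 stood apart from the other controls. On the first principal component (41.1% of variance) it lay at -8.76, controls 2 to 4 at 19.5 to 27.9 and the knockouts at -39.1 and -23.4. Over all genes its log2 values correlated most with knockout 2 (Pearson r = 0.9775 over genes, against 0.9745 to 0.9759 with the other controls). Albumin mRNA took 7.58% to 8.45% of counts in controls and 10.02% and 13.7% in knockouts, and the nuclear RNA Malat1 took 1.13% to 1.37% in controls and 1.58% and 1.79% in knockouts. Their part in the results was not tested.

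**Figure D1:**
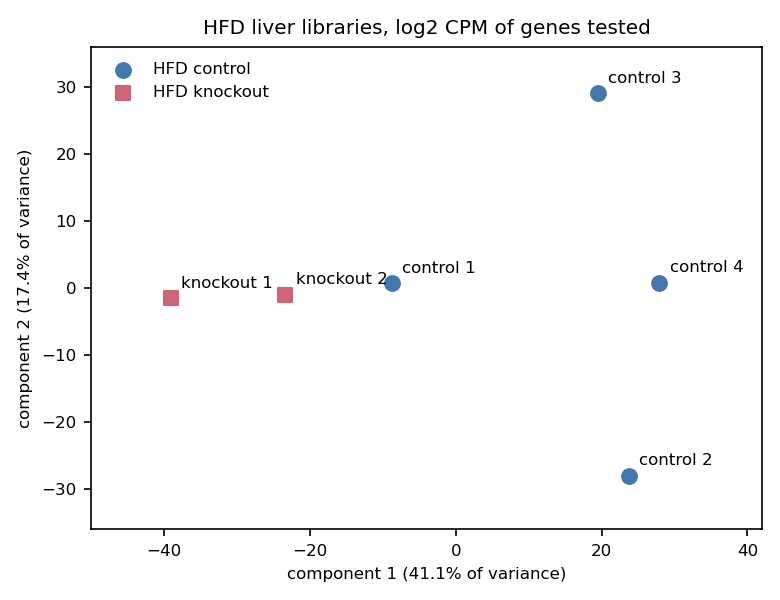
Position of the 6 HFD libraries on the first 2 principal components of log2 CPM (genes tested). Knockouts lie at -39.1 and -23.4 on component 1, HFD control 1 at -8.76 and the other controls at 19.5 to 27.9.

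Nr5a2 itself was not lower in the libraries labelled knockout. In normalized counts scaled to library size (CPM), it stood at 76.9, 73.6, 63.7 and 65.4 CPM in controls 1 to 4 and at 68.4 and 83.8 CPM in knockouts 1 and 2. The knockouts lay within or just above the range of the controls, and the change did not pass (log2 fold change 0.12, SE 0.13, adjusted p = 0.756 by edgeR). It was -0.03 without knockout 2. Counts summed over a gene do not check a deletion that leaves most of its exons in place, so the labels alone define the knockouts here.

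In all, 34 genes rose and 93 fell in knockouts at an edgeR adjusted p under 0.05, which is 0.275% and 0.752% of the genes tested, or 1.03% together. Of these, 22 rose and 62 fell by at least 2-fold (0.178% and 0.501%). The median log2 fold change of all genes tested was -0.0013. At an unadjusted p under 0.05 there were 1590 genes (12.9%), and in 2753 genes (22.3%) the knockouts lay outside the range of the controls. With 2 knockout libraries these counts depended on single libraries. Without HFD control 1 the calls numbered 430 (3.53%), 176 higher (1.44%) and 254 lower (2.09%), and they included all 127. Without control 2, 3 or 4 they numbered 43, 69 and 44, and without knockout 1 or knockout 2 they numbered 16 and 36. In none of these fits did any of the 127 genes change direction. The 127 were called from these same libraries, so a kept direction is no independent support. HFD control 1 lay nearest the knockouts on the first component, so leaving it out tends to widen the gap between groups. Calls gained in that fit, here and below, are therefore no independent support either. Only 8 of the 127 passed under every alternative and without any 1 library: AW549542, Camk1d, Cfd, Cyp2c55, Cyp8b1, Gm10319, Paqr9 and St6gal1. Counts of list members below stand against 0.752% of all genes tested called lower and 0.275% called higher. At an unadjusted edgeR p under 0.05 the share of all genes was 12.9%, in either direction. In what follows, the values in brackets after a gene are its log2 fold change (knockout minus control), the SE and the edgeR adjusted p. Where a gene whose values are given lost its call without a library, the library and the adjusted p stand in the same paragraph.

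**Figure D2:**
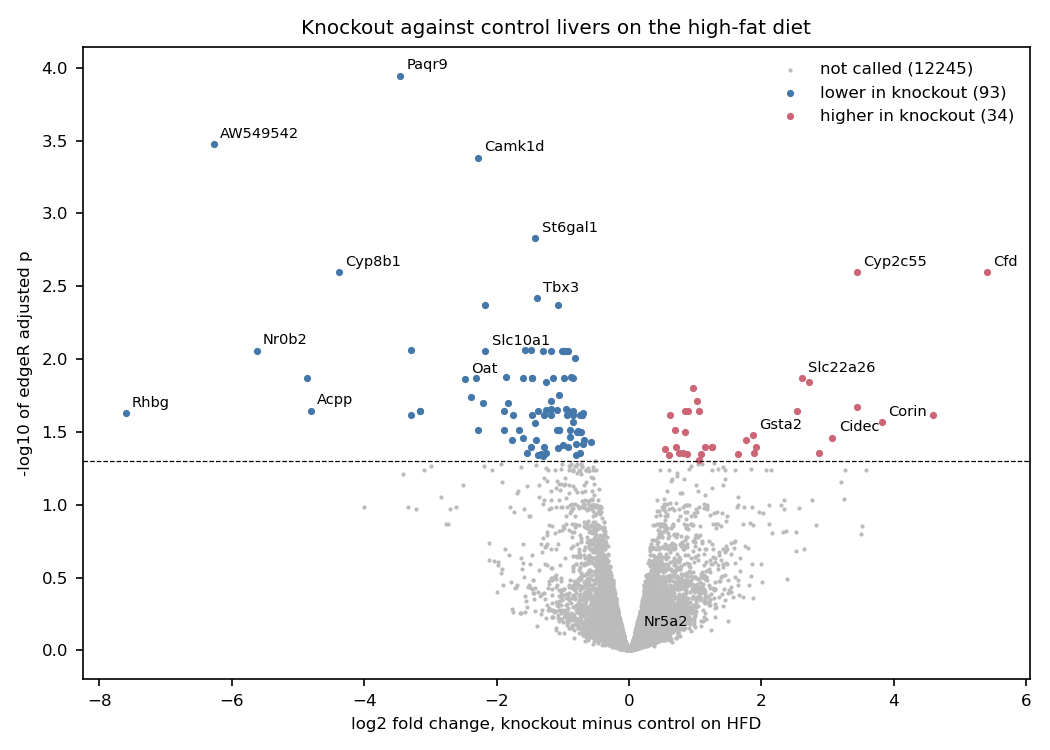
Each point is 1 of the 12372 genes tested, with the log2 fold change (knockout minus control on HFD) on the x axis and -log10 of the edgeR adjusted p on the y axis. The dashed line is an adjusted p of 0.05; 93 genes lie above it on the left and 34 on the right.

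Known LRH-1 targets were mostly lower: of 13 listed, 12 had a negative log2 fold change, with a median of -1.06. Of the 13, 6 were called lower and 0 higher, against 0.752% and 0.275% of all genes. The list was written with earlier results of these data known, so this contrast is no independent support. Nr0b2, which encodes SHP, stood at 6.25, 13.1, 12.2 and 7.38 CPM in controls 1 to 4 and at 0 and 0.332 CPM in knockouts 1 and 2. Every control lay above both knockouts, with 342 counts in controls and 3 in knockouts, all 3 of them in knockout 2, a ratio of 51.8 (exact 95% interval 17.6 to 252, counting error only, adjusted p = 0.00873). Without knockout 1 the ratio was 28.7 (interval 9.74 to 139.9), and without knockout 2 Nr0b2 was at least 23.1-fold lower, set against 3 counts over the group. Cyp8b1, which makes the 12-hydroxylated bile acid cholic acid, stood at 62.3, 86.5, 101 and 93.3 CPM in controls 1 to 4 and at 6.75 and 1.77 CPM in knockouts 1 and 2. The lowest control lay far above both knockouts (log2 fold change -4.38, SE 0.41, adjusted p = 0.00251). The HDL receptor gene Scarb1 stood at 62.7, 61.4, 62.8 and 64.1 CPM in controls 1 to 4 and at 36.1 and 35.1 CPM in knockouts 1 and 2, with hardly any spread within either group (-0.82, SE 0.10, adjusted p = 0.00984). The cytosolic aspartate aminotransferase gene Got1 fell as well (-1.25, SE 0.24, adjusted p = 0.0439), from a control mean of 392 ± 107 CPM (SD, n = 4) to a knockout mean of 164 ± 16.1 CPM (SD, n = 2). The 2 other falls were the sterol exporter genes taken up next. Nr0b2 lost its call without knockout 1 (adjusted p = 0.0567), and Scarb1 without either knockout (adjusted p = 0.0686 to 0.0755). Got1 lost its call without control 2, 3 or 4 or either knockout (adjusted p = 0.0754 to 0.344). Cyp8b1 moved on the log2 scale to -5.59 without knockout 1 and -3.66 without knockout 2.

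Not all listed targets moved. Cyp7a1, the rate-limiting enzyme gene of classic bile acid synthesis, stood at 1068, 1122, 1619.9 and 1158 CPM in controls 1 to 4 and at 1455 and 1387 CPM in knockouts 1 and 2, so the knockouts lay inside the range of the controls (0.19, SE 0.17, adjusted p = 0.705). The groups overlapped for the apolipoprotein gene Apoa1 too (-0.26, SE 0.23, adjusted p = 0.703). The bile acid exporter gene Abcc3 (-1.62, SE 0.33, adjusted p = 0.0551), the apolipoprotein M gene Apom (-1.23, SE 0.27, adjusted p = 0.0686), the kinase gene Plk3 (-2.07, SE 0.43, adjusted p = 0.0578) and the glutaminase gene Gls2 (-0.49, SE 0.19, adjusted p = 0.301) lay below every control in both knockouts without passing. Without HFD control 1, 9 of the 13 targets passed, the additional ones being Abcc3, Apom and Plk3 (adjusted p = 0.0279, 0.0031 and 0.0071). All 9 were lower, where 2.09% of all genes tested were called lower in that fit. It leaves out the control nearest the knockouts, so the added calls are no independent support. Abcc3 passed without control 3 too (adjusted p = 0.0409).

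Among 24 metabolic nuclear receptors and their coregulators Nr0b2 was the 1 that passed (median -0.02). The farnesoid X receptor gene Nr1h4 stood at 194, 246, 254 and 245 CPM in controls 1 to 4 and at 185 and 146 CPM in knockouts 1 and 2 (-0.50, SE 0.15, adjusted p = 0.161). Pparg, a receptor gene tied to fat storage, stood at 16.8, 7.73, 11.0 and 17.0 CPM in controls 1 to 4 and at 32.9 and 30.3 CPM in knockouts 1 and 2 (1.26, SE 0.26, adjusted p = 0.0578). In both genes the groups did not overlap, and without HFD control 1 Nr1h4 and Pparg passed (adjusted p = 0.042 and 0.0251). Of 17 liver transcription factors 1 fell and 0 rose (median -0.06), the factor gene Tbx3, at 35.4, 35.3, 29.5 and 32.8 CPM in controls 1 to 4 and at 12.1 and 13.2 CPM in knockouts 1 and 2 (log2 fold change -1.39, SE 0.14, adjusted p = 0.0038). Cebpa (-0.69, SE 0.19, adjusted p = 0.14) did not pass. Cebpa passed without HFD control 1 (adjusted p = 0.0061). Tbx3 lost its call without knockout 1 (adjusted p = 0.0517).

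Genes of lipid export into bile fell. Of 9 canalicular transporters 3 fell and 0 rose (median -0.52), against 0.752% and 0.275% of all genes tested. Abcg5 and Abcg8 encode the partners that form the exporter of sterols into bile. Abcg5 stood at 54.6, 78.5, 64.8 and 70.2 CPM in controls 1 to 4 and at 31.0 and 33.2 CPM in knockouts 1 and 2 (-1.06, SE 0.16, adjusted p = 0.0178). Abcg8 stood at 105, 112, 102 and 111 CPM in controls 1 to 4 and at 59.9 and 49.2 CPM in knockouts 1 and 2 (-0.98, SE 0.12, adjusted p = 0.00873). The phosphatidylcholine flippase gene Abcb4 stood at 114, 122, 116 and 102 CPM in controls 1 to 4 and at 62.2 and 55.0 CPM in knockouts 1 and 2 (-0.96, SE 0.12, adjusted p = 0.00884). In all 3 genes both knockouts lay below every control. The organic anion exporter gene Abcc2 stood at a control mean of 785 ± 60.2 CPM (SD, n = 4) and a knockout mean of 533 ± 79.5 CPM (SD, n = 2) without passing (-0.56, SE 0.13, adjusted p = 0.0921). Abcg5 lost its call without control 4 or either knockout (adjusted p = 0.0602 to 0.158), and Abcg8 without knockout 2 (adjusted p = 0.0583). Abcb4 lost its call without either knockout (adjusted p = 0.0547 to 0.0686).

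On the sinusoidal side 1 of 11 transporters fell and 1 rose (median -0.33). Slc10a1, which encodes the sodium-dependent bile acid importer NTCP, stood at 434, 771, 914 and 777 CPM in controls 1 to 4 and at 164 and 158 CPM in knockouts 1 and 2 (log2 fold change -2.17, SE 0.27, adjusted p = 0.00884). HFD control 1 was the lowest control and still lay above both knockouts. The prostaglandin transporter gene Slco2a1 rose (0.84, SE 0.15, adjusted p = 0.0316), from a control mean of 74.3 ± 9.25 CPM (SD, n = 4) to a knockout mean of 134 ± 25.8 CPM (SD, n = 2), and the organic anion importer gene Slco1a1 did not pass (-0.98, SE 0.22, adjusted p = 0.0733). Slco1a1 passed without HFD control 1 (adjusted p = 0.0182). Of 15 genes of bile acid synthesis and conjugation Cyp8b1 fell and 0 rose (median -0.16). Hsd3b7 (-0.77, SE 0.19, adjusted p = 0.102) and Akr1c6 (-0.82, SE 0.19, adjusted p = 0.0987), which act on the sterol ring, did not pass. Both passed without HFD control 1, a fit in which 3 genes of the list did, all lower, against 2.09% of all genes tested. Slc10a1 lost its call without either knockout (adjusted p = 0.0686 to 0.0883), and Slco2a1 without control 2, 3 or 4 or either knockout (adjusted p = 0.0533 to 0.301).

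**Figure D3:**
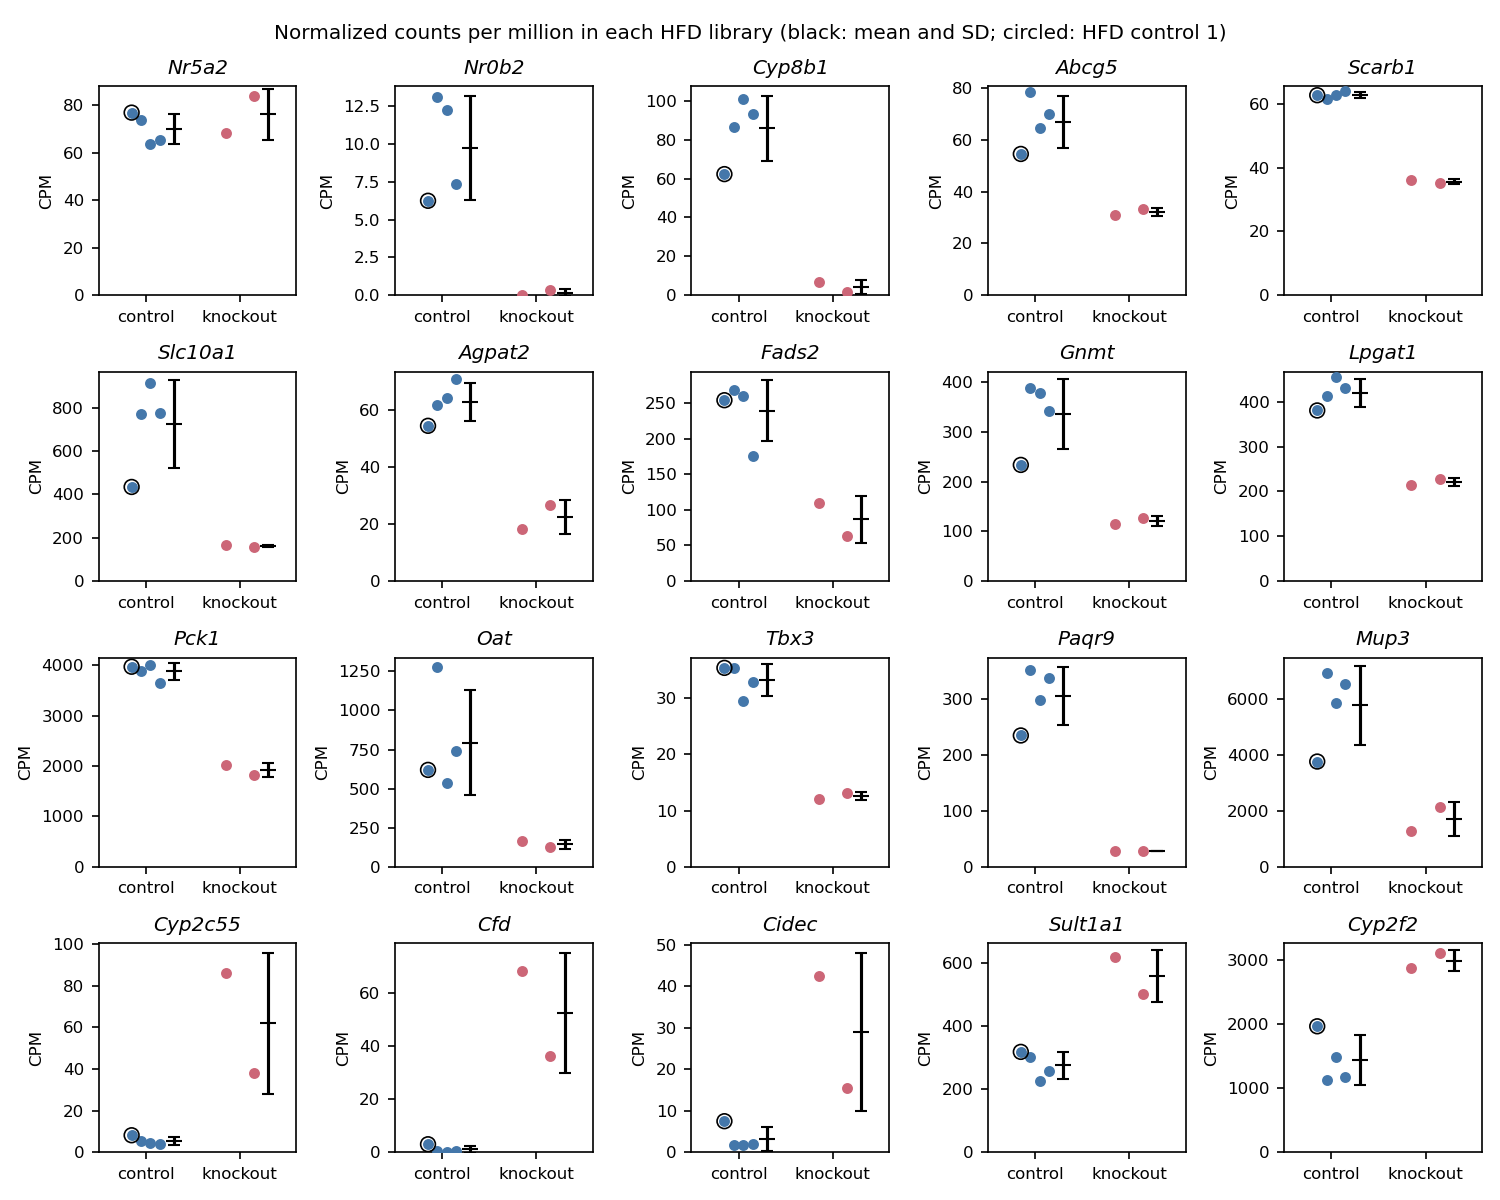
CPM of 20 genes in each HFD library, with the mean and SD of each group in black and HFD control 1 circled. Except for Nr5a2, the 2 knockouts lie outside the range of the 4 controls in every panel.

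In the making of polyunsaturated fatty acids 1 of 14 genes fell and 0 rose (median -0.66). Fads2, the delta-6 desaturase gene, stood at 255, 269, 261 and 176 CPM in controls 1 to 4 and at 110.4 and 63.6 CPM in knockouts 1 and 2 (log2 fold change -1.47, SE 0.24, adjusted p = 0.0243), with control 4 the lowest control. The delta-5 desaturase gene Fads1 stood at 996, 1048, 1037 and 789 CPM in controls 1 to 4 and at 638 and 397 CPM in knockouts 1 and 2 (-0.90, SE 0.20, adjusted p = 0.0727). The elongase genes Elovl5 (-1.64, SE 0.54, adjusted p = 0.232) and Elovl2 (-0.57, SE 0.17, adjusted p = 0.175) did not pass, although in each the knockouts lay below every control. Elovl5 ranged from 286 to 1107 CPM among the controls alone. Elovl5 moved on the log2 scale to -2.47 without knockout 1, -1.11 without knockout 2 and -1.13 without control 1. Fads2 lost its call without control 2 or 3 or knockout 2 (adjusted p = 0.0593 to 0.123).

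Of 19 genes of the methionine cycle and betaine metabolism 2 fell and 0 rose (median -0.21). Mat1a, which makes S-adenosylmethionine in hepatocytes, stood at 1539.6, 1966, 1591 and 1833 CPM in controls 1 to 4 and at 1011 and 925 CPM in knockouts 1 and 2 (-0.84, SE 0.14, adjusted p = 0.0272). Gnmt, which spends S-adenosylmethionine to methylate glycine, stood at 234, 388, 379.8 and 342 CPM in controls 1 to 4 and at 114 and 128 CPM in knockouts 1 and 2 (-1.47, SE 0.20, adjusted p = 0.0135). Both groups of values were apart in each gene. The hydroxymethyltransferase gene Shmt1 (-0.79, SE 0.17, adjusted p = 0.0604) and the cystathionine lyase gene Cth (-0.93, SE 0.23, adjusted p = 0.103) did not pass, and without HFD control 1 Shmt1 and Cth passed (adjusted p = 0.0495 and 0.00311). Without control 3 Shmt1 passed as well (adjusted p = 0.042). Of 15 genes of phosphatidylcholine and phosphatidylethanolamine synthesis 0 passed (median -0.29). At an unadjusted edgeR p under 0.05, 7 were lower and 0 higher, where 12.9% of all genes lay under it in either direction. Pemt, which methylates phosphatidylethanolamine, stood at 101, 114, 113 and 119.9 CPM in controls 1 to 4 and at 78.1 and 76.5 CPM in knockouts 1 and 2 (-0.54, SE 0.11, adjusted p = 0.0551). Pcyt1a, the rate-limiting enzyme gene of the choline route, stood at a control mean of 136 ± 12.6 CPM (SD, n = 4) and a knockout mean of 92.9 ± 2.35 CPM (SD, n = 2) (-0.55, SE 0.12, adjusted p = 0.0655). The glycerophosphocholine hydrolase gene Gpcpd1 stood at a control mean of 336 ± 51.8 CPM (SD, n = 4) and a knockout mean of 199.7 ± 22.9 CPM (SD, n = 2) (-0.75, SE 0.15, adjusted p = 0.0578). These 3 passed without HFD control 1, and no other gene of the list did. In that fit 2.09% of all genes tested were called lower. Gnmt lost its call without either knockout (adjusted p = 0.0686 to 0.143), and Mat1a without control 2 or 4 or either knockout (adjusted p = 0.0707 to 0.171).

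Of 16 acyl chain remodeling genes 2 fell and 0 rose (median 0.06). The acyltransferase gene Lpgat1 stood at 381, 412, 455 and 432 CPM in controls 1 to 4 and at 215 and 228 CPM in knockouts 1 and 2 (log2 fold change -0.92, SE 0.12, adjusted p = 0.00884). The lysophospholipase gene Pnpla7, whose product takes a fatty acid off lysophosphatidylcholine, fell from a control mean of 73.9 ± 8.69 CPM (SD, n = 4) to a knockout mean of 41.1 ± 4.34 CPM (SD, n = 2) (-0.85, SE 0.14, adjusted p = 0.0243). The acyltransferase gene Lpcat3, which loads arachidonate into phosphatidylcholine, stood at 86.9, 80.9, 94.9 and 86.0 CPM in controls 1 to 4 and at 104 and 64.9 CPM in knockouts 1 and 2 and did not pass (-0.05, SE 0.17, adjusted p = 0.941). Lpgat1 lost its call without either knockout (adjusted p = 0.058 to 0.105), and Pnpla7 without control 2 or 4 or either knockout (adjusted p = 0.0549 to 0.146).

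In triglyceride synthesis and VLDL assembly 1 of 19 genes fell and 0 rose (median -0.09). It was Agpat2, which makes phosphatidic acid, at 54.3, 61.7, 63.9 and 70.6 CPM in controls 1 to 4 and at 18.3 and 26.6 CPM in knockouts 1 and 2 (log2 fold change -1.47, SE 0.17, adjusted p = 0.0086). The lipid transfer gene Tm6sf2 stood at a control mean of 14.9 ± 2.74 CPM (SD, n = 4) and a knockout mean of 7.30 ± 1.56 CPM (SD, n = 2) (-1.03, SE 0.23, adjusted p = 0.0716). De novo lipogenesis had 1 of 16 lower and 0 higher (median -0.22), the liver pyruvate kinase gene Pklr (-0.92, SE 0.14, adjusted p = 0.0226). Of 20 genes of fatty acid uptake and 28 of fatty acid oxidation and ketogenesis 0 passed (medians 0.08 and -0.14, with 3 and 4 at an unadjusted p under 0.05). The carnitine acyltransferase gene Cpt1a stood at a control mean of 860.0 ± 65.6 CPM (SD, n = 4) and a knockout mean of 629.8 ± 189 CPM (SD, n = 2) (-0.45, SE 0.17, adjusted p = 0.304). The fatty acid transporter gene Slc27a1 stood at a control mean of 7.02 ± 2.88 CPM (SD, n = 4) and a knockout mean of 19.6 ± 4.58 CPM (SD, n = 2) (1.45, SE 0.30, adjusted p = 0.0578), and without HFD control 1 Slc27a1 passed (adjusted p = 0.00383). Agpat2 lost its call without knockout 1 (adjusted p = 0.0542), and Pklr without control 3 or 4 or either knockout (adjusted p = 0.0506 to 0.143).

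A gene of lipid droplets rose. Of 19 lipid droplet and lipolysis genes 1 rose and 0 fell (median 0.14). Cidec, whose product fuses lipid droplets, stood at 7.52, 1.72, 1.81 and 1.91 CPM in controls 1 to 4 and at 42.4 and 15.5 CPM in knockouts 1 and 2 (log2 fold change 3.07, SE 0.55, adjusted p = 0.0346). Among the controls, control 1 was well above the rest, and knockout 1 was far above knockout 2. Plin4, a coat protein gene of droplets, stood at 24.2, 7.11, 7.03 and 8.01 CPM in controls 1 to 4 and at 58.5 and 41.0 CPM in knockouts 1 and 2 (2.07, SE 0.43, adjusted p = 0.0578), again with control 1 between the other controls and the knockouts, and without HFD control 1 Plin4 passed (adjusted p = 0.000306). Cidec lost its call without control 2, 3 or 4 or knockout 1 (adjusted p = 0.0828 to 0.35). Cidec moved on the log2 scale to 3.98 without control 1 and 2.20 without knockout 1.

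Cholesterol genes held few calls, all of them falls, at 4% and 12.5% of the 2 lists against 0.752% of all genes. Of 25 genes of synthesis and uptake 1 fell and 0 rose (median -0.19), the sterol reductase gene Hsd17b7, at 171, 159, 161 and 144 CPM in controls 1 to 4 and at 90.2 and 104 CPM in knockouts 1 and 2 (-0.71, SE 0.12, adjusted p = 0.0243). Insig1, a regulator gene of sterol synthesis, did not pass (-0.60, SE 0.18, adjusted p = 0.187). In cholesterol efflux, esterification and lipoprotein exchange 2 of 16 fell and 0 rose (median -0.14), Scarb1 and the oxysterol-binding protein gene Osbpl3. Osbpl3 stood at 25.7, 11.0, 29.4 and 11.8 CPM in controls 1 to 4 and at 2.75 and 1.33 CPM in knockouts 1 and 2 (log2 fold change -3.29, SE 0.54, adjusted p = 0.0243). Its controls fell into a higher and a lower pair, and all lay above the knockouts. Of 14 apolipoproteins Apon fell and 0 rose (median -0.26), at 155, 263, 269 and 267 CPM in controls 1 to 4 and at 54.5 and 76.9 CPM in knockouts 1 and 2 (-1.86, SE 0.25, adjusted p = 0.0132), with control 1 well below the other controls. Apof (-0.89, SE 0.18, adjusted p = 0.0538) and Apoa4 (-0.86, SE 0.24, adjusted p = 0.153) did not pass. Insig1 and Apof passed without HFD control 1 (adjusted p = 0.0495 and 0.00653). Hsd17b7 lost its call without control 2, 3 or 4 or either knockout (adjusted p = 0.0553 to 0.241), and Osbpl3 without either knockout (adjusted p = 0.143 to 0.159). Apon lost its call without knockout 1 (adjusted p = 0.13).

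In glucose and glycogen metabolism 2 of 22 genes fell and 0 rose (median -0.21), Pklr and Pck1. Pck1, the gluconeogenic carboxykinase gene, was among the most abundant genes called, at 3973, 3887, 4009.7 and 3644 CPM in controls 1 to 4 and at 2023 and 1821 CPM in knockouts 1 and 2 (log2 fold change -1.01, SE 0.13, adjusted p = 0.00884). The 4 controls lay close together, and both knockouts lay far below them. None of 18 genes of insulin and IGF signaling passed (median -0.01, with 3 at an unadjusted p under 0.05), and none of 21 hepatokine genes did (median -0.36, with 8). Of the latter, Ttr, the transthyretin gene, stood at 7716, 6752, 6201 and 6692 CPM in controls 1 to 4 and at 11455 and 9979 CPM in knockouts 1 and 2 (0.65, SE 0.14, adjusted p = 0.0664). Ttr passed without HFD control 1 (adjusted p = 0.0214). Pck1 lost its call without either knockout (adjusted p = 0.0567 to 0.0686).

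Hepatocytes near the central vein of a liver lobule capture ammonium and make glutamine, while those near the portal vein make urea and glucose. Of 17 pericentral hepatocyte genes 5 fell and 0 rose (median -0.22), and of 14 periportal genes 1 fell and 1 rose (median -0.28). Of all genes tested 0.752% fell and 0.275% rose. Oat, the ornithine aminotransferase gene, stood at 619.6, 1281, 533 and 742 CPM in controls 1 to 4 and at 162 and 123 CPM in knockouts 1 and 2 (log2 fold change -2.47, SE 0.35, adjusted p = 0.0137). Rhbg, an ammonium channel gene, stood at 4.44, 2.33, 1.93 and 2.29 CPM in controls 1 to 4 and at 0 and 0 CPM in knockouts 1 and 2, with 103 counts in controls and 0 in knockouts, at least 15.6-fold lower against the limit of 3 counts over the group (adjusted p = 0.0234). That bound was 8.65 without knockout 1, 6.95 without knockout 2 and 11.8 to 17.3 without any 1 control. The glutamate transporter gene Slc1a2 (-0.80, SE 0.16, adjusted p = 0.0455) and Gulo, the last enzyme gene of ascorbate synthesis (-1.09, SE 0.17, adjusted p = 0.0223), fell too, as did Tbx3 (above). The periportal cytochrome gene Cyp2f2 rose from a control mean of 1440.5 ± 387 CPM (SD, n = 4) to a knockout mean of 2993 ± 166 CPM (SD, n = 2) (1.05, SE 0.21, adjusted p = 0.0494), and the periportal fall was Pck1. In bulk RNA, fewer cells of a type and less RNA per cell cannot be told apart. Oat lost its call without either knockout (adjusted p = 0.102 to 0.106), and Rhbg without control 2 or 4 or either knockout (adjusted p = 0.0611 to 0.141). Slc1a2 and Cyp2f2 lost their calls without control 2, 3 or 4 or either knockout (adjusted p = 0.0593 to 0.37), and Gulo without control 2 or 4 or knockout 1 (adjusted p = 0.0546 to 0.166). Cyp2f2 did not pass with total counts as scaling (adjusted p = 0.055).

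Oat and Got1 were also the 2 of 18 urea cycle and glutamine genes that fell, with 0 higher (median -0.19). Of 35 genes of amino acid catabolism 1 rose and 0 fell (median -0.06), the histidine breakdown gene Amdhd1, at 126, 121, 113 and 111 CPM in controls 1 to 4 and at 165 and 178 CPM in knockouts 1 and 2 (0.54, SE 0.10, adjusted p = 0.0415). Amdhd1 lost its call without control 2, 3 or 4 or either knockout (adjusted p = 0.103 to 0.198). Amdhd1 did not pass with total counts as scaling (adjusted p = 0.0518). Amdhd1 did not pass with the replicate number as a block (adjusted p = 0.167).

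Xenobiotic cytochrome P450 genes held 5 of the 34 rises. Of 31 tested, 5 rose and 1 fell, against 0.275% and 0.752% of all genes, with a median of -0.11. Cyp2c55 stood at 8.24, 5.52, 4.65 and 3.94 CPM in controls 1 to 4 and at 85.9 and 38.1 CPM in knockouts 1 and 2 (log2 fold change 3.44, SE 0.33, adjusted p = 0.00251), with both knockouts far above the highest control. Cyp2a22 rose (1.91, SE 0.36, adjusted p = 0.0404), with knockout 1 at 182 and knockout 2 at 64.4 CPM over controls of 22.9 to 41.6 CPM. Cyp2a12 (0.61, SE 0.10, adjusted p = 0.0243), Cyp2c44 (0.61, SE 0.12, adjusted p = 0.0457) and Cyp2f2 (above) rose by less, and Cyp3a25 fell (-1.06, SE 0.18, adjusted p = 0.0306). Reads of Cyp2a and Cyp2c genes may be split between close paralogs, so single members are uncertain. Cyp2a22 lost its call without control 2, 3 or 4 or knockout 1 (adjusted p = 0.0948 to 0.368), and Cyp2a12, Cyp2c44 and Cyp3a25 without control 2, 3 or 4 or either knockout (adjusted p = 0.0523 to 0.387). Cyp2c55 moved on the log2 scale to 2.74 without knockout 1 and Cyp2a22 to 0.98 without knockout 1. Cyp2a12 and Cyp2c44 did not pass with the replicate number as a block (adjusted p = 0.104 and 0.0972).

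Conjugating enzymes showed 1 rise in each of the 2 lists. Of 18 glutathione S-transferases Gsta2 rose and 0 fell (median 0.12), at 22.5, 13.2, 10.4 and 8.90 CPM in controls 1 to 4 and at 65.7 and 36.5 CPM in knockouts 1 and 2 (1.87, SE 0.33, adjusted p = 0.0332). Its close paralog Gsta1 stood at 0.996, 0.613, 0.113 and 0.127 CPM in controls 1 to 4 and at 7.30 and 2.1 CPM in knockouts 1 and 2 (3.20, SE 0.70, adjusted p = 0.0699), and reads may be shared between them. Of 21 genes of glucuronidation and sulfation the sulfotransferase gene Sult1a1 rose and 0 fell (median 0.17), at 319, 303, 226 and 256 CPM in controls 1 to 4 and at 618 and 502 CPM in knockouts 1 and 2 (1.02, SE 0.15, adjusted p = 0.0194). Of 22 NRF2 and glutathione genes the carbonyl reductase gene Cbr1 fell (-0.73, SE 0.13, adjusted p = 0.0317) and 0 rose (median 0.08). None of 22 endoplasmic reticulum stress genes passed (median -0.04, with 2 at an unadjusted p under 0.05). Gsta1 passed without HFD control 1 (adjusted p = 0.0279). Gsta1 moved on the log2 scale to 3.96 without control 1, 2.08 without knockout 1 and 3.86 without knockout 2. Gsta2 and Cbr1 lost their calls without control 2, 3 or 4 or either knockout (adjusted p = 0.0555 to 0.318), and Sult1a1 without control 4 or either knockout (adjusted p = 0.051 to 0.179). Cbr1 did not pass with the replicate number as a block (adjusted p = 0.0634).

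Of 18 male-biased liver genes 2 fell and 0 rose, with a median of -0.65. Mup3, a major urinary protein gene, was the most abundant gene called, at 3762, 6928, 5874 and 6523 CPM in controls 1 to 4 and at 1267 and 2146 CPM in knockouts 1 and 2 (log2 fold change -1.76, SE 0.29, adjusted p = 0.0243). Mup genes are nearly identical, so its reads are uncertain, and it was the 1 of 13 tested Mup genes that passed (median -0.26). Susd4 stood at a control mean of 10.3 ± 1.62 CPM (SD, n = 4) and a knockout mean of 3.33 ± 1.40 CPM (SD, n = 2) (-1.60, SE 0.29, adjusted p = 0.0346). Cyp4a12b (-2.71, SE 0.68, adjusted p = 0.107) and the steroid dehydrogenase gene Hsd3b5 (-2.76, SE 0.75, adjusted p = 0.136) did not pass. Hsd3b5 ran from 27.6 to 223 CPM among the controls alone. Of 13 tested female-biased genes Atp6v0d2, a proton pump subunit gene, fell from a control mean of 11.4 ± 3.29 CPM (SD, n = 4) to a knockout mean of 1.32 ± 1.25 CPM (SD, n = 2) (-3.16, SE 0.50, adjusted p = 0.0226) and 0 rose (median 0.28). Cyp4a12b passed without HFD control 3 (adjusted p = 0.0409). Hsd3b5 passed without HFD control 1 (adjusted p = 0.0171). Cyp4a12b moved on the log2 scale to -1.97 without control 3 and Hsd3b5 to -2.13 without control 3 and -3.66 without knockout 2. Mup3 and Susd4 lost their calls without control 2, 3 or 4 or either knockout (adjusted p = 0.0504 to 0.233), and Atp6v0d2 without control 2 or 4 or knockout 2 (adjusted p = 0.0611 to 0.0936). Atp6v0d2 moved on the log2 scale to -4.63 without knockout 1 and -2.35 without knockout 2.

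Plasma protein and immune lists held few calls. Of 36 complement and coagulation genes 1 rose and 0 fell (median -0.04). It was Cfd, which encodes complement factor D (adipsin), at 3.08, 0.613, 0.340 and 0.382 CPM in controls 1 to 4 and at 68.4 and 36.5 CPM in knockouts 1 and 2 (log2 fold change 5.41, SE 0.52, adjusted p = 0.00251). Cfd is also an adipocyte gene, and of the 6 adipocyte markers Adipoq, Lep and Retn were at 0 in all 6 libraries, with Plin1 at 0 in every library but knockout 1 (1 count). The sixth, Car3, an anhydrase gene with high levels in these libraries, ran from 1559 to 3171 CPM in controls and stood at 2418 and 1399 CPM in knockouts. Complement C3 stood at a control mean of 8749 ± 2279 CPM (SD, n = 4) and a knockout mean of 4189 ± 204 CPM (SD, n = 2) (-1.06, SE 0.23, adjusted p = 0.0723). None of 24 acute phase genes passed (median -0.36, with 8 lower and 0 higher at an unadjusted p under 0.05), among them Itih3 (-1.54, SE 0.34, adjusted p = 0.0749). The protease inhibitor gene Mug1 fell from a control mean of 4310.1 ± 481 CPM (SD, n = 4) to a knockout mean of 2482 ± 128 CPM (SD, n = 2) (-0.80, SE 0.15, adjusted p = 0.0382). None of 18 iron genes passed (median -0.22, with 3 at an unadjusted p under 0.05); Hamp2, a close paralog of the hepcidin gene with uncertain reads, stood at 119, 209, 87.9 and 95.9 CPM in controls 1 to 4 and at 20.2 and 56.2 CPM in knockouts 1 and 2 (-1.73, SE 0.44, adjusted p = 0.112). C3 and Itih3 passed without HFD control 1 (adjusted p = 0.0113 and 0.0277). Hamp2 moved on the log2 scale to -2.66 without knockout 2 and -1.19 without knockout 1. Mug1 lost its call without control 2, 3 or 4 or either knockout (adjusted p = 0.08 to 0.297). Cfd moved on the log2 scale to 6.84 without control 1. Mug1 did not pass with the replicate number as a block (adjusted p = 0.0979).

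Interferon and antigen presentation genes were nearly all on the high side without a call. Of 27, 26 had a positive log2 fold change, with a median of 0.33 against -0.0013 over all genes tested. At an unadjusted edgeR p under 0.05, 7 were higher and 0 lower, where 12.9% of all genes lay under it in either direction. Cxcl9 stood at 32.1, 20.4, 37.6 and 21.7 CPM in controls 1 to 4 and at 110.0 and 38.8 CPM in knockouts 1 and 2 (1.40, SE 0.36, adjusted p = 0.114), with knockout 1 far above knockout 2. Gbp2 stood at a control mean of 7.11 ± 1.02 CPM (SD, n = 4) and a knockout mean of 14.8 ± 5.50 CPM (SD, n = 2) (1.05, SE 0.24, adjusted p = 0.0803). Without HFD control 1, 5 of 27 passed, all higher, with a median of 0.50. In that fit, which leaves out the control nearest the knockouts, 1.44% of all genes tested were called higher. The list of 18 cell cycle genes had 0 calls, 3 higher at an unadjusted p under 0.05 and a median of 0.42, with cyclin D1 (Ccnd1) at 49.3, 36.4, 30.9 and 12.8 CPM in controls 1 to 4 and at 67.1 and 84.2 CPM in knockouts 1 and 2 (1.22, SE 0.36, adjusted p = 0.177). Cxcl9 passed without knockout 2 (adjusted p = 0.0385). Gbp2 and Ccnd1 passed without HFD control 1 (adjusted p = 0.0419 and 0.0476). Cxcl9 moved on the log2 scale to 0.47 without knockout 1. Of 17 clock genes 0 passed (median -0.08, with 3 at an unadjusted p under 0.05).

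In the matrix list 1 of 22 genes fell and 0 rose (median 0.22): Fn1, the fibronectin gene, which hepatocytes secrete, went from a control mean of 2267 ± 83.7 CPM (SD, n = 4) to a knockout mean of 1322 ± 229 CPM (SD, n = 2) (-0.78, SE 0.14, adjusted p = 0.0317). Markers of other liver cells were set beside these lists. Summed CPM of 10 stellate cell markers was 332 to 495 in controls and 497 to 597 in knockouts. The sum of 10 endothelial markers was 532 to 542 and 561 to 589, that of 12 Kupffer cell markers 235 to 589 and 404 to 422, and that of 9 cholangiocyte markers 28.5 to 108 and 90.3 to 102. The 6 hepatocyte markers summed to 101228 to 104621 and 120396 to 165830. Most of that sum was albumin (Alb), at 76317 to 83261 CPM in controls and 140562 and 98264 CPM in knockouts. Ttr was higher in both knockouts too (above), the fibrinogen gene Fga ran from 4367 to 6064 CPM in controls and stood at 3978 and 4382 CPM in knockouts, and Apoa1 and Serpina1a overlapped between the groups. Hnf4a ran from 605 to 653 CPM in controls and stood at 665 and 669 CPM in knockouts. HFD control 1 was the highest control in the stellate, Kupffer and cholangiocyte sums. None of the members of these lists passed, and their part in the results was not tested. Fn1 lost its call without control 2, 3 or 4 or either knockout (adjusted p = 0.0581 to 0.278).

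**Figure D4:**
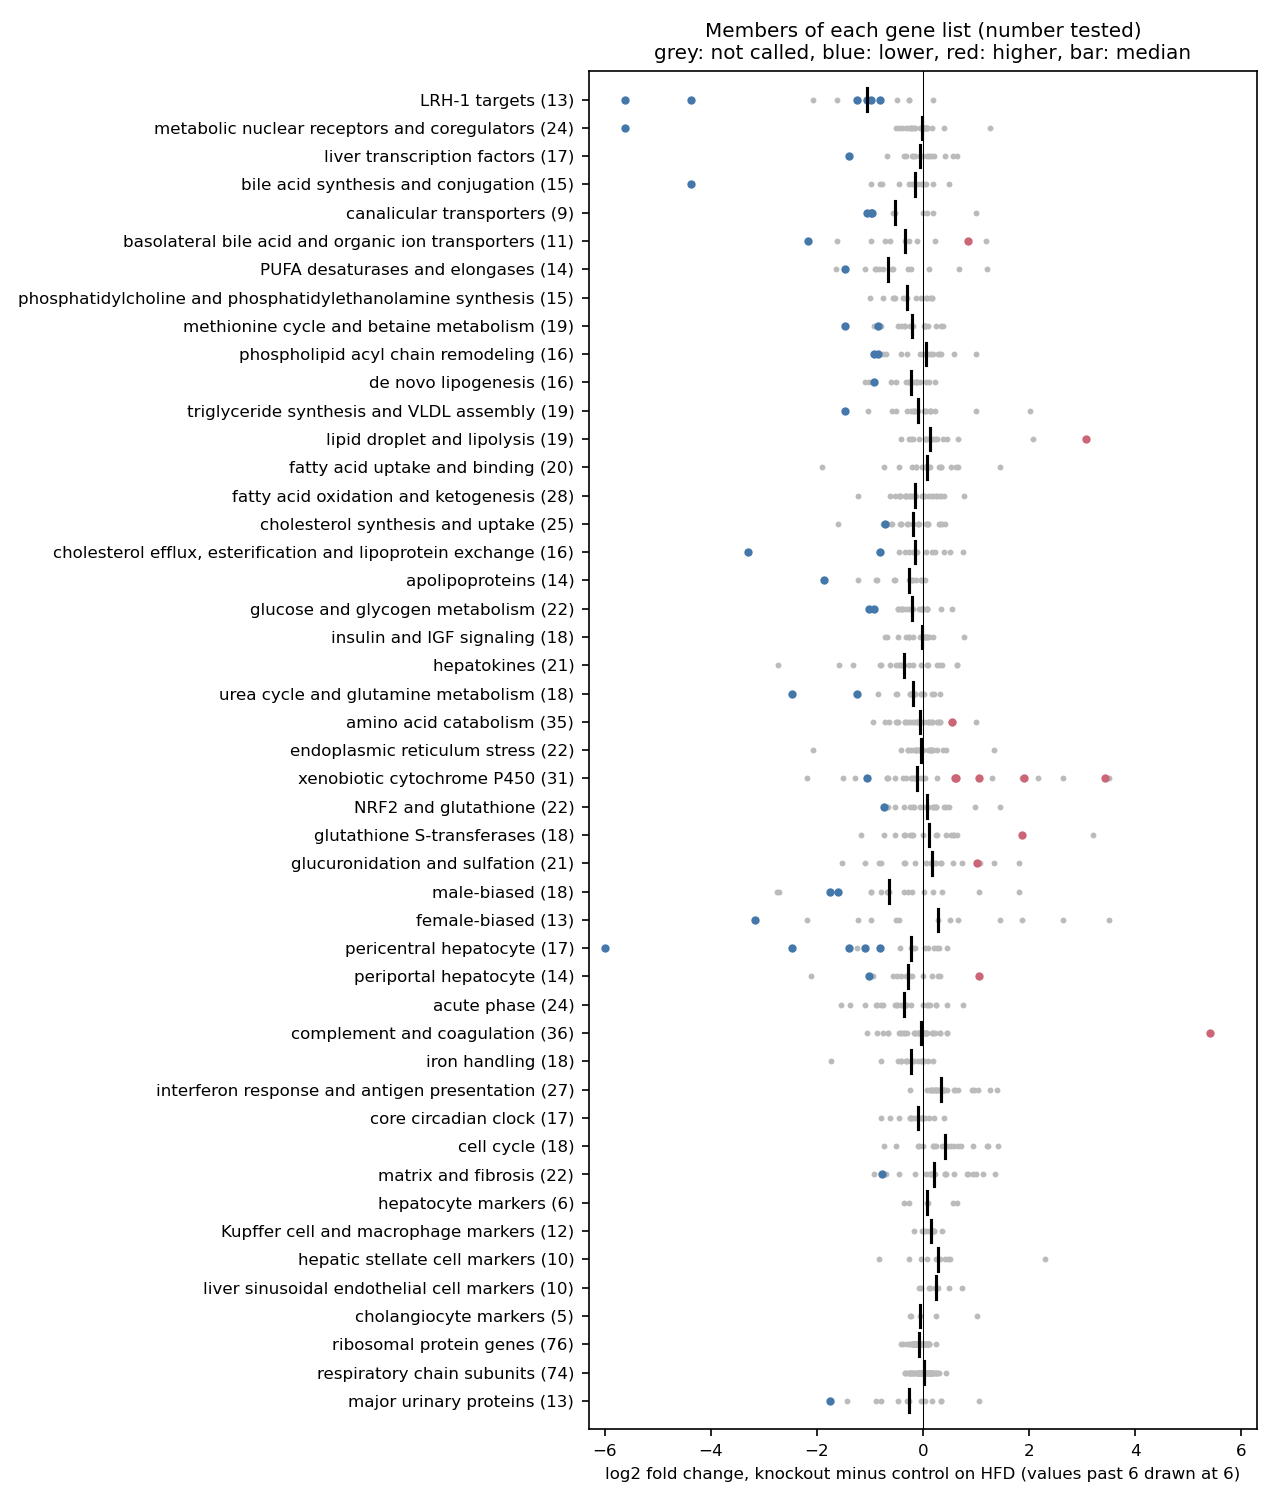
Log2 fold change of each tested gene (grey not called, blue lower, red higher in knockouts) in every list with at least 5 genes tested, with the median as a bar. The LRH-1 target list has the lowest median, -1.06, and 6 blue points.

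Among calls beyond the lists with a mean of at least 5 CPM in either group, AW549542 and Acpp had the lowest log2 fold changes. AW549542, an uncharacterized locus, stood at 8.97, 10.1, 12.7 and 10.7 CPM in controls 1 to 4 and at 0.138 and 0.111 CPM in knockouts 1 and 2, with 377 counts in controls and 2 in knockouts, a ratio of 85.6 (exact 95% interval 23.5 to 710, counting error only, adjusted p = 0.000335). Acpp, which encodes prostatic acid phosphatase, stood at 5.07, 14.3, 21.3 and 16.8 CPM in controls 1 to 4 and at 0.826 and 0.221 CPM in knockouts 1 and 2 (-4.81, SE 0.76, adjusted p = 0.0226). Paqr9, a progestin and adipoQ receptor family gene, stood at 235, 352, 299.9 and 338 CPM in controls 1 to 4 and at 28.4 and 27.6 CPM in knockouts 1 and 2 (log2 fold change -3.45, SE 0.19, adjusted p = 0.000113). It had the smallest adjusted p of all genes, and the 2 knockouts were nearly alike. Tnfaip8l1 (-3.30, SE 0.39, adjusted p = 0.0086) and the calcineurin regulator gene Rcan2 (-3.16, SE 0.49, adjusted p = 0.0226) fell from 23.7 to 2.39 CPM on average and 15.0 to 1.71 CPM on average, in that order. Acpp lost its call without control 2 or 4 or either knockout (adjusted p = 0.0611 to 0.142), and Tnfaip8l1 and Rcan2 without either knockout (adjusted p = 0.0583 to 0.141). Acpp moved on the log2 scale to -5.92 without knockout 1 and -4.08 without knockout 2.

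Smaller falls, named after their values were seen, included the kinase gene Camk1d, at 102, 126, 109 and 97.8 CPM in controls 1 to 4 and at 25.5 and 19.4 CPM in knockouts 1 and 2 (-2.28, SE 0.16, adjusted p = 0.000413). The sialyltransferase gene St6gal1 stood at 54.9, 59.1, 63.8 and 60.0 CPM in controls 1 to 4 and at 22.4 and 22.1 CPM in knockouts 1 and 2 (-1.41, SE 0.12, adjusted p = 0.00148). Both passed in every fit that left out a library. Klb, which encodes beta-klotho, the coreceptor of FGF15 and FGF21, fell (-1.18, SE 0.18, adjusted p = 0.0221). So did the manganese exporter gene Slc30a10 (-0.99, SE 0.14, adjusted p = 0.0135), the corticosteroid-binding globulin gene Serpina6 (-1.07, SE 0.20, adjusted p = 0.0406) and the cytochrome gene Cyp4f14 (-1.67, SE 0.29, adjusted p = 0.0307), whose promoter holds the half-site word on both strands. Klb lost its call without control 2 or 4 or either knockout (adjusted p = 0.0567 to 0.123), and Slc30a10 without either knockout (adjusted p = 0.0636 to 0.143). Serpina6 and Cyp4f14 lost their calls without control 2, 3 or 4 or either knockout (adjusted p = 0.0549 to 0.26).

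The largest rises were in genes with low counts in controls. Corin, which encodes a natriuretic peptide protease, stood at 1.81, 0.123, 0.340 and 0.127 CPM in controls 1 to 4 and at 12.3 and 7.19 CPM in knockouts 1 and 2 (log2 fold change 3.82, SE 0.64, adjusted p = 0.0271). Slc22a26, an organic anion transporter gene, stood at 5.16, 6.25, 3.06 and 5.09 CPM in controls 1 to 4 and at 43.2 and 16.8 CPM in knockouts 1 and 2 (2.61, SE 0.35, adjusted p = 0.0135). Kbtbd11 stood at 4.53, 2.94, 1.47 and 1.40 CPM in controls 1 to 4 and at 21.6 and 13.8 CPM in knockouts 1 and 2 (2.73, SE 0.39, adjusted p = 0.0144). In these 3 genes knockout 1 was the higher of the knockouts, as it was in Cfd, Cidec and Cyp2c55. The lactate dehydrogenase B gene Ldhb (1.88, SE 0.36, adjusted p = 0.0439) and the collagen gene Col4a3 (1.65, SE 0.32, adjusted p = 0.045) rose from 1.45 to 5.44 CPM on average and 2.55 to 8.07 CPM on average, in that order. Corin, Ldhb and Col4a3 lost their calls without control 2, 3 or 4 or either knockout (adjusted p = 0.0593 to 0.406), and Slc22a26 without knockout 1 (adjusted p = 0.0921). Kbtbd11 lost its call without control 2 or knockout 1 (adjusted p = 0.0546 to 0.143). Corin moved on the log2 scale to 5.49 without control 1 and Slc22a26 to 1.78 without knockout 1. Corin did not pass with DESeq2 (adjusted p = 0.0527). Ldhb and Col4a3 did not pass with the replicate number as a block (adjusted p = 0.0575 and 0.118).

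The knockout effect was set beside that on the standard diet with a model of all 12 libraries. In this model the 2 comparisons share no library, but the variance of each gene is estimated over all 12. Calls on the 2 diets are therefore not fully independent. That model called 325 genes on HFD and 526 (4.38%) on the standard diet, 173 higher (1.44%) and 353 lower (2.94%). Of the 93 HFD falls, 92 had the same sign on the standard diet and 71 were called lower there. Of the 34 rises, 30 had the same sign and 13 were called higher. These shared calls are 66.1% of the 127 HFD calls, which come from the fit of 6 libraries. Within the fit of 12, 163 genes were called the same way on both diets, 50.2% of its 325 HFD calls and 31% of its 526 standard diet calls. A difference between diets in the effect of the knockout passed for 0 of 12015 genes by edgeR, with 911 at an unadjusted p under 0.05, and no other tool was run on it. The standard diet libraries held 2371167 to 3404570 counts, fewer than any HFD library, so diet and depth cannot be told apart.

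**Figure D5:**
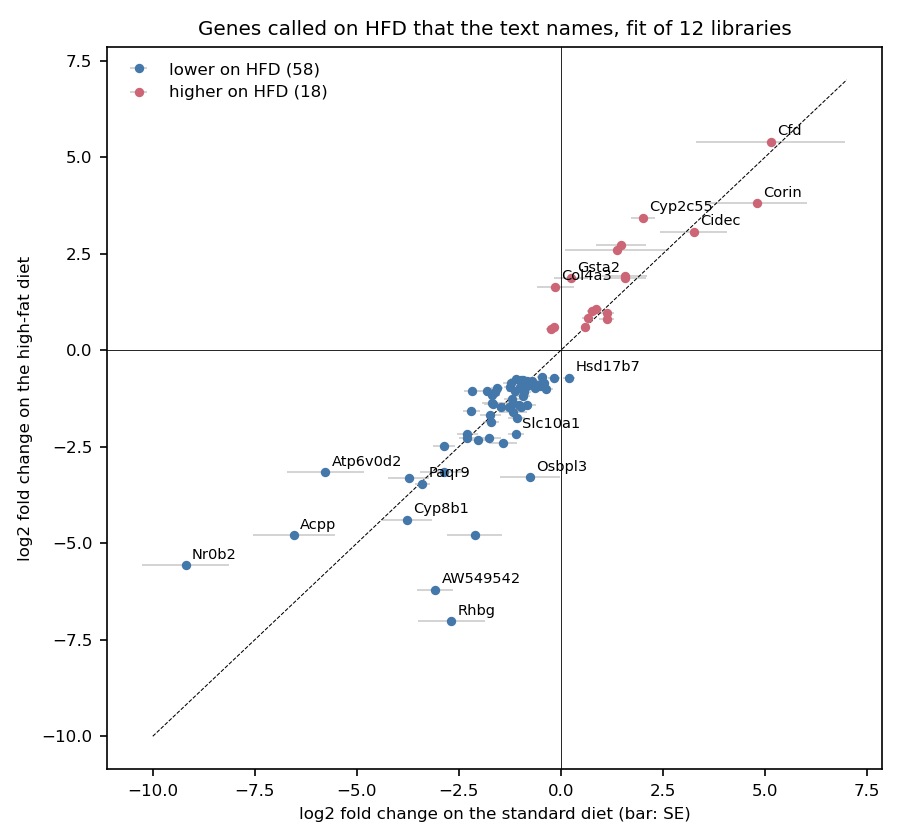
Log2 fold change (knockout minus control) on the standard diet (x axis, bar the SE) against that on the high-fat diet (y axis) for the 76 genes called on HFD that the text names, from the fit of 12 libraries. The dashed line marks equal change; 72 of the 76 genes have the same sign on both diets.

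In 47 of the 76 genes called on HFD that are named here the value lay farther in its direction on HFD, and in the rest on the standard diet. These genes were chosen by their HFD calls, which favors larger values on HFD. The count of 47 therefore cannot show a difference between diets. The differences with the 5 smallest p among the 76 follow, chosen after their values were seen. Amdhd1 stood at 0.54 on HFD and -0.25 on the standard diet (difference 0.79, SE 0.16, adjusted p = 0.291) and Cyp2c44 at 0.61 on HFD and -0.17 on the standard diet (difference 0.77, SE 0.18, adjusted p = 0.329). For the cholesterol gene Hsd17b7 the values were -0.71 on HFD and 0.19 on the standard diet (difference -0.91, SE 0.21, adjusted p = 0.329). Slc10a1 stood at -2.17 on HFD and -1.10 on the standard diet (difference -1.07, SE 0.28, adjusted p = 0.374) and Serpina6 at -1.07 on HFD and -2.17 on the standard diet (difference 1.10, SE 0.28, adjusted p = 0.352). Larger values, with larger SE, lay in both directions. Osbpl3 stood at -3.29 on HFD and -0.76 on the standard diet (difference -2.53, SE 0.94, adjusted p = 0.568), and Atp6v0d2 at -3.16 on HFD and -5.77 on the standard diet (difference 2.61, SE 1.43, adjusted p = 0.725). Of genes not called on HFD, Apoa4 stood at -0.86 on HFD and 1.46 on the standard diet (difference -2.32, SE 0.38, adjusted p = 0.202) and Hamp2 at -1.73 on HFD and -5.62 on the standard diet (difference 3.89, SE 1.05, adjusted p = 0.398). None of these differences passed, which does not show that the diets acted alike. Paqr9 (-3.46 and -3.39), Camk1d (-2.28 and -2.30) and Agpat2 (-1.48 and -1.46) had nearly equal values.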

How the data were processed

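Liver RNA was sequenced with libraries from total RNA (Nugen Ovation kit, per the labels' protocols). The submitters' processing notes name the build mm9, TopHat2 2.1.0, HTSeq and DESeq2 1.14.1. Per gene symbol, the authors deposited raw counts in whole numbers, without normalization. How strand and multiply mapped reads were treated is not given in the sources used here. Close paralogs and overlapping genes are therefore uncertain.

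Counts of the 6 HFD libraries, 4 control and 2 knockout with 7463792 to 10875478 counts each, entered the two-sided quasi-likelihood test of edgeR (version 4.0.16, with limma 3.58.1, in R 4.3.3). TMM normalization was used, filterByExpr with a minimum count of 10, and Benjamini-Hochberg adjustment over the 12372 genes tested. A gene was called at an adjusted p under 0.05. The biological coefficient of variation, common to all genes, was 0.166. The labels do not say that libraries came from separate mice, so p-values measure the spread between libraries. CPM use normalized library sizes, and 3 counts over a group correspond to 0.0836 CPM in controls and 0.184 CPM in knockouts. Intervals cover counting error only. SE were derived from the test statistic. The procedure was tested on simulated data.

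The groups, the gene lists (42 functional, 11 of cell type markers) and the tests were chosen with earlier results of these data known, and lists were described by counts and medians without a set test. Named genes were Nr5a2, the 10 largest rises and the 10 largest falls among calls with at least 5 CPM and no overlap, the 6 most abundant calls, and up to 4 members per list with the smallest p. Others are said to be chosen after their values were seen or are list members. Alternatives were all 12 libraries in the fit, RLE normalization, total counts as scaling, no filter, DESeq2 1.42.0, the replicate number as a block, and each library left out in turn. Leaving out 1 knockout leaves 1 such library, assumed to vary like the controls.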

Additional observations from a re-analysis of the deposited data

Results flagged for a closer look

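In 124 values examined over the 4 HFD controls, 1 control stood far from the other 3 in 12 (9.68%). In 9 of the 12 that library was HFD control 1. Chance gives about 1 in 20 for independent, normally distributed values. Most of the 124 are genes chosen from these same data, and they may vary together. The share therefore cannot measure an excess over chance. In CPM, control 1 held 7.52 of Cidec (others 1.72 to 1.91), 24.2 of Plin4 (7.03 to 8.01), 3.08 of Cfd (0.340 to 0.613) and 1.81 of Corin (0.123 to 0.340). These 4 genes were all higher in knockouts, of which Plin4 was not called. Control 1 also held 154.9 CPM of Apon (others 263 to 269), 89.5 of Ang (225 to 238) and 194 of Nr1h4 (245 to 254), all on the side of the knockouts. It held 4.44 CPM of Rhbg (others 1.93 to 2.33), on the side away from them, and Malat1 took 1.37% of its counts (others 1.13% to 1.15%). Over all 127 calls, each control was placed between the mean of the other 3 controls and that of the knockouts. Control 1 lay a median of 18.8% of the way to the knockouts, and the other controls at -8.95% to -6.08%. The 127 calls were themselves made from these libraries. The record of control 1 beyond the labels is not given in the sources used here.

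Among the other controls, Cyp7a1 stood at 1620 CPM in control 3 (others 1068 to 1158), Fads2 at 176 CPM in control 4 (255 to 269) and Gulo at 293 CPM in control 2 (229 to 237).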

How the results depend on the processing

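The 127 calls (34 higher, 93 lower) numbered 325 (125 and 200) with all 12 libraries in the fit, 322 (119 and 203) with no filter on low counts, 357 (116 and 241) with DESeq2 and 244 (85 and 159) with the replicate number as a block. With single libraries left out they ranged from 16 to 430, the higher ones from 3 to 176 and the lower ones from 13 to 254. RLE normalization gave 127 and total counts as scaling 136, with 127 and 124 of the 127 among them. All 127 kept their sign in every one of these 12 alternatives. They were called from the same libraries, so this is no independent support. Of the 127, 107 passed in each alternative that left out none of the 6 libraries, 37 in each fit without a control and 8 in every alternative. With the replicate number as a block, controls 3 and 4 have no knockout of their number. The knockout effect in that fit therefore rests only on controls 1 and 2 and knockouts 1 and 2. On the log2 scale Nr5a2 was at 0.26 without knockout 1 and -0.0302 without knockout 2, Lpcat3 at -0.43 and 0.25, and Apoa1 at 0.0188 with the replicate block, none of them called. The replicate numbers pair no animals in the labels. Deviations from the group means correlated at 0.122 for number 1 and 0.014 for number 2, and at 0.129 for control 4 with knockout 2. The deviations of 2 knockouts are opposite, so a control's correlations with them differ only in sign and cannot show a pairing. With 2 knockouts and 4 controls, and 2 to 3 counts in some groups, changes in low genes are the least certain, and a gene that did not pass may still differ.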

Other observations

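Of the 127 calls, 86 lay in none of the functional lists. The genes that follow were chosen among them after their values were seen. Rnase4, a secreted ribonuclease gene, stood at 446, 969, 930.5 and 879 CPM in controls 1 to 4 and at 130.0 and 194 CPM in knockouts 1 and 2 (log2 fold change -2.31, SE 0.32, adjusted p = 0.0135). Ang, the angiogenin gene that shares its locus, stood at 89.5, 238, 225 and 238 CPM in controls 1 to 4 and at 31.7 and 49.6 CPM in knockouts 1 and 2 (-2.27, SE 0.39, adjusted p = 0.0306). Reads of this overlapping pair may be split between them. Both fell, with control 1 the lowest control in each. Hgfac, the hepatocyte growth factor activator gene (-1.56, SE 0.18, adjusted p = 0.0086), and Atf5, which encodes a stress-response transcription factor (-2.39, SE 0.35, adjusted p = 0.0182), fell as well. Rnase4 and Hgfac lost their calls without either knockout (adjusted p = 0.0556 to 0.143), and Ang without control 2, 3 or 4 or either knockout (adjusted p = 0.0625 to 0.271). Atf5 lost its call without control 2 or 4 or either knockout (adjusted p = 0.0517 to 0.0963). Atf5 moved on the log2 scale to -3.01 without knockout 1 and -1.93 without knockout 2.

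The gap junction gene Gjb2 went from a control mean of 388 ± 27.4 CPM (SD, n = 4) to a knockout mean of 199.7 ± 45.6 CPM (SD, n = 2) (-0.96, SE 0.15, adjusted p = 0.0221), and Cldn2, a tight junction claudin gene, from a control mean of 147 ± 31.0 CPM (SD, n = 4) to a knockout mean of 68.9 ± 1.68 CPM (SD, n = 2) (-1.09, SE 0.19, adjusted p = 0.0306). The mitochondrial carrier gene Slc25a47 (-1.37, SE 0.26, adjusted p = 0.0455), Gckr (-0.76, SE 0.13, adjusted p = 0.0313) and the melanocortin receptor accessory gene Mrap (-1.15, SE 0.16, adjusted p = 0.0135) fell too. The peptide transporter family gene Slc15a5 had 144 counts in controls and 2 in knockouts, a ratio of 32.7 (exact 95% interval 8.89 to 273). Without knockout 1 that ratio was 18.1, and without knockout 2 Slc15a5 was at least 9.71-fold lower. The long noncoding RNA Neat1 (0.82, SE 0.16, adjusted p = 0.0439) and the carboxylesterase gene Ces1b (0.97, SE 0.14, adjusted p = 0.0158) rose. Gjb2 and Ces1b lost their calls without control 2 or 4 or knockout 1 (adjusted p = 0.0515 to 0.164), and Cldn2 without control 2 or 4 or either knockout (adjusted p = 0.0742 to 0.214). Slc25a47 lost its call without control 2, 3 or 4 or knockout 2 (adjusted p = 0.0954 to 0.123), and Gckr and Neat1 without control 2, 3 or 4 or either knockout (adjusted p = 0.0549 to 0.224). Mrap and Slc15a5 lost their calls without either knockout (adjusted p = 0.0504 to 0.13). Slc25a47 moved on the log2 scale to -1.98 without knockout 1 and -0.94 without knockout 2. Neat1 did not pass with total counts as scaling (adjusted p = 0.052).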
